A study of Mus musculus with 40 samples.

Results

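The oligoadenylate synthetase (OAS) family was followed through 5 genes, Oas1a, Oas2, Oas3, Oasl1 and Oasl2, listed by name and matched through their Ensembl identifiers to 5 of the 45792 mouse genes in the deposited count table. They were chosen with earlier results of these data known, so counts of members set beside all genes are a description. All 5 had enough counts to be tested in both tissues. In the mouse colon the 5 genes were higher in animals carrying the protozoan Tritrichomonas musculis (T.mu) than in animals without it, in isolated epithelium and in whole tissue, when the 3 sampling days were averaged. Oas2 and Oas3 in epithelium, and Oas2 in whole tissue, passed the count filter only through T.mu libraries. No control library reached its minimum for them, so their calls there draw on the group where they were high.

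The 40 libraries came from colonic epithelial cells and from total colonic tissue of mice that had been given 2000000 sorted T.mu or nothing. Each was sampled 3, 14 or 48 days later, which gives 12 groups of 3 libraries, or 4 at day 48. Numbers 1 to 4, used as litter numbers, are shared by T.mu titles (TM1 to TM4) and control titles (C-L1 to C-L4). Only the control titles carry the L. The design text counts 3 mice per group, so that the 4 libraries at day 48 are separate mice rests on these numbers. Strain, genotype, sex and age are not given in the sources used here, and no agent other than the inoculum is named.

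Oligoadenylate synthetases bind double-stranded RNA and then join ATP into short chains of adenylate, a second messenger of the antiviral response. The genes are standard targets of interferons: type I and type III interferon receptors signal through JAK kinases to a complex that contains STAT2 and IRF9 and binds the interferon-stimulated response element in their promoters. In the gut, epithelial cells respond mainly to type III interferon and the cells beneath them mainly to type I. Oas1a, Oas2 and Oas3 encode catalytic synthetases that differ in how many copies of the synthetase unit they carry, Oasl2 encodes an active enzyme with ubiquitin-like domains at its end, and Oasl1 encodes an inactive relative that is known to restrain the translation of Irf7.

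All 5 genes lie on mouse chromosome 5 (GRCm38, GENCODE M21 annotation, all protein coding). Oasl2 (chr5:114896936-114912234, plus strand) and Oasl1 (chr5:114923240-114937915, plus strand) form a pair that spans 41.0 kb. Oas2 (chr5:120730333-120749853), Oas3 (chr5:120753098-120777661) and Oas1a (chr5:120896256-120907521), all on the minus strand, belong to a second cluster of 10 family genes over 191.3 kb, and 5.792 Mb separate the 2 clusters. Since the libraries sequence the ends of transcripts, sequence shared near the 3′ end matters for the counts. Of the 451 stretches of 50 bases in the last 500 bases of Oas1a, 253 (56.1%) also occur in its neighbour Oas1g, so reads of these 2 genes could be exchanged or lost, and their separate counts are uncertain. The other 4 genes shared none with any family gene. Oas2 and Oasl1 overlap genes on the opposite strand (Gm43068 with 34 counts over all libraries, Gm13822 with 38), and the strand used in counting is not given in the sources used here.

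The promoters are shown because these genes were all higher with T.mu as the mean of the days, and because interferon-responsive promoters are recognised by short repeats of GAA. RefSeq's table for GRCm38.p6 held 4 of the 5 genes. The 150 bases before each start site are printed 5′ to 3′ on the gene's own strand. Capitals mark matches to AANNGAAA, the core bound by interferon regulatory factors, or to GAAANNGAA, the tandem repeat of the response element, where N is any base. Both strands were searched, and matches to the 2 motifs may overlap.
Oas1a (chr5:120907526-120907675, minus strand): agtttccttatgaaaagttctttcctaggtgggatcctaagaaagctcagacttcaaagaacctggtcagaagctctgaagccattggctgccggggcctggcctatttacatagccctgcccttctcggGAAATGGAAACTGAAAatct
Oas3 (chr5:120777660-120777809, minus strand): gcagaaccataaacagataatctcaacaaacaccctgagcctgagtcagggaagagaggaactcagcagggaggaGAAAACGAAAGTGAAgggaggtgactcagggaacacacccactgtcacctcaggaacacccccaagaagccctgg
Oasl1 (chr5:114923090-114923239, plus strand): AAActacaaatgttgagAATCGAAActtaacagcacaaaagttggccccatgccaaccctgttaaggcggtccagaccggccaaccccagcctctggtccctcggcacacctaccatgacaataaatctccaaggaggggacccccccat
Oasl2 (chr5:114896784-114896933, plus strand): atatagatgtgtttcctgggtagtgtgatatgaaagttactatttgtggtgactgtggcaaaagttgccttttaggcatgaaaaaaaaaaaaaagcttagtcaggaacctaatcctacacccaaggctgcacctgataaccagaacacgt
Oas1a held overlapping matches to both motifs next to its start site, with the tandem repeat beginning at positions -20 and -14. Oas3 held the tandem repeat at -75 and -69. Oasl1 held the core at -133, a core beginning at -155 whose last 3 bases open the printed stretch, another on the other strand at -177, outside it, and no tandem repeat. Oasl2 held neither motif in this window. Over the full 300 bases in the table, 23.9% of 32851 promoters held the core and 8.56% the tandem repeat, and in the 150 bases before the start the shares were 12.4% and 3.95%. Oas1g carries the same stretch as Oas1a over 56 bases that begin at -58 in Oas1a and at -56 in Oas1g, and this stretch holds the tandem repeat of both.

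Depth and cell make-up set what could be seen. Mouse counts ran from 170291 to 2866306 per epithelial library (median 1166080) and from 220717 to 6756616 per tissue library (median 2158349), with 3 and 4 libraries below 400000. The summed level of 10 epithelial markers was 5510 to 15212 counts per 1000000 mouse counts (CPM) in epithelium and 11408 to 17785 in total tissue, and that of 7 goblet cell markers 28361 to 51183 against 6171 to 12989. Smooth muscle markers (7 genes) summed to 26.6 to 74.7 CPM in epithelium and 2531 to 5844 in tissue, fibroblast markers (7 genes) to 3.80 to 41.2 and 707 to 2058. The table also has 1 row that is no mouse gene, and its level reached 423 to 2073 CPM of all counts in the day 3 epithelium of T.mu animals and 6533 to 42755 in their day 3 tissue. It was at most 71.5 in control epithelium, but reached 969 in 1 control tissue library of day 48 and 512 in 1 of day 14, and in T.mu epithelium of day 48 it went down to 45.2. Group labels were kept as given. In bulk samples, fewer cells of a type and less RNA per cell cannot be told apart.

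**Figure D1:**
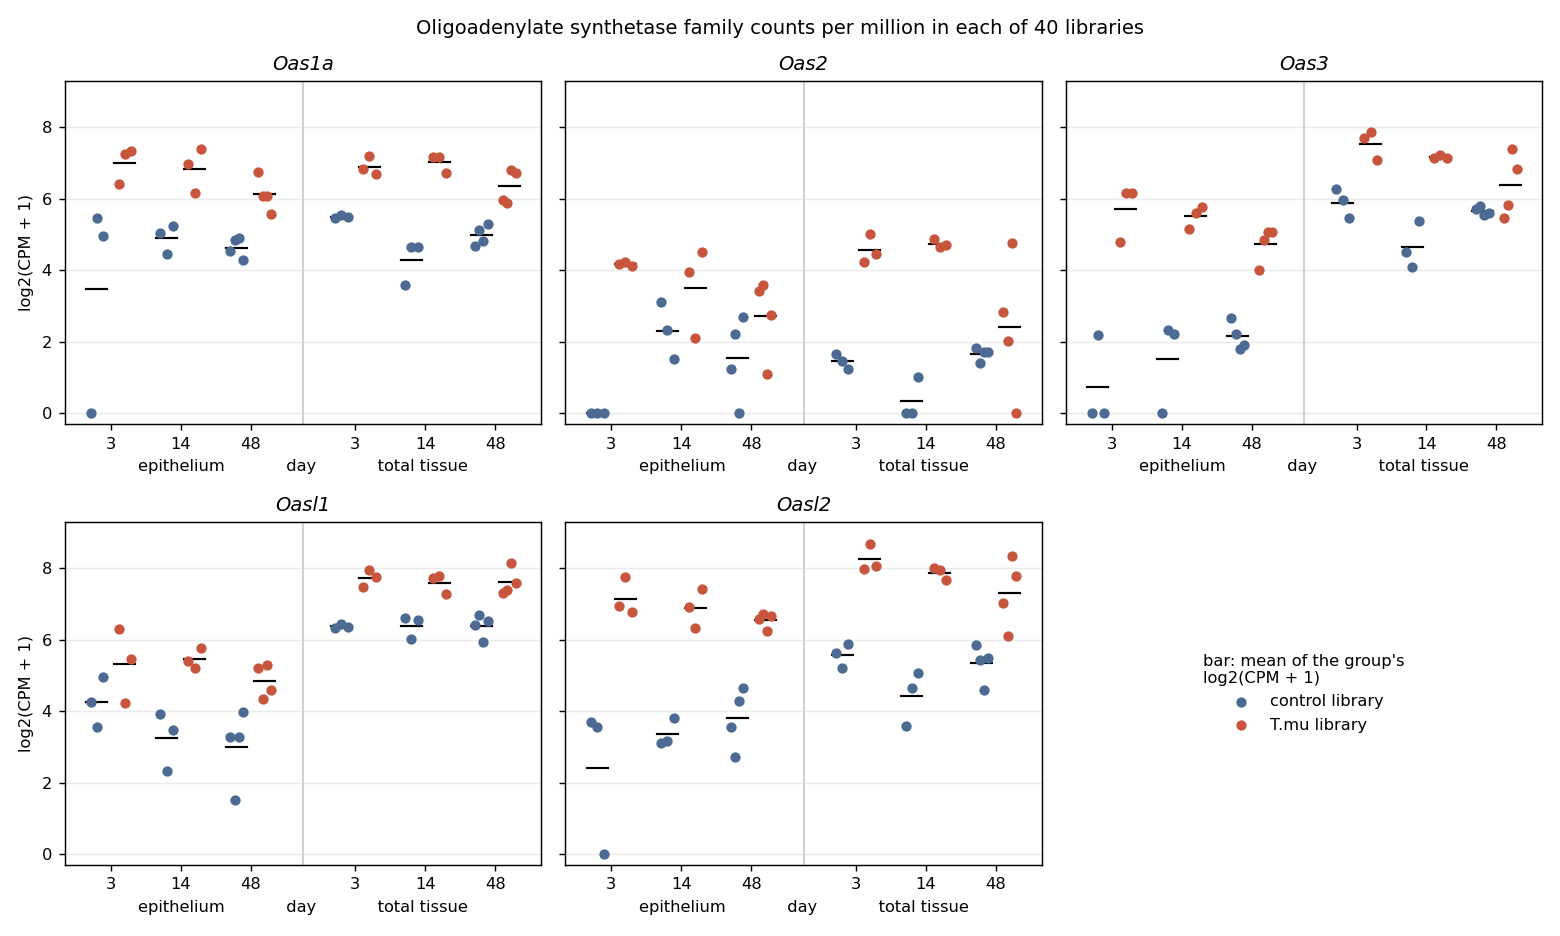
Levels of the 5 OAS genes in each library, as log2(CPM + 1) with TMM scaling, by tissue and day. Points are libraries (3 per group, 4 at day 48), blue for control and red for T.mu, and bars are group means. Red points lie above blue ones for Oasl2 and Oas1a in every tissue and day. Control Oas3 lies lower in epithelium (0 to 5.38 CPM) than in total tissue (16 to 76.4 CPM).

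In epithelium the strongest change of the family, by its p-value, was that of Oasl2. Day 3 controls had 12.1, 10.8 and 0 CPM and T.mu libraries 121, 214 and 109 CPM, a log2 fold change of 3.91 ± 0.50 (SE; 15-fold, edgeR adjusted p = 3.62e-07, 3 libraries per group). Day 14 controls had 7.65, 7.99 and 13 CPM against 120.2, 79.8 and 169 CPM (log2 fold change 3.65 ± 0.40, adjusted p = 1.03e-08), where Oasl2 ranked 1 of 10119 genes tested. At day 48 the 4 controls had 10.8, 5.53, 18.5 and 24 CPM and the 4 T.mu libraries 94.7, 105, 74.8 and 99.6 CPM (2.64 ± 0.32, 6.24-fold, adjusted p = 1.76e-07, again rank 1). No T.mu library overlapped a control on any day.

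Oas3, the largest of the synthetases, was almost absent from control epithelium. Its day 3 controls had 0, 3.59 and 0 CPM. The day 14 controls had 0, 3.99 and 3.71 CPM, and those of day 48 had 5.38, 3.68, 2.47 and 2.77. With T.mu the values were 26.6, 71.3 and 70.7 CPM on day 3, then 34.8, 47.7 and 54.1, and finally 15.3, 27.6, 32.8 and 32.6. The groups did not overlap. Since the day 3 controls held 2 counts in all against 128, the ratio of pooled counts per depth is given with its exact 95% counting interval, 31.2 (8.46 to 260.4), beside the fitted log2 fold change of 4.79 ± 0.80 (adjusted p = 0.000178). The fitted values were 3.99 ± 0.58 at day 14 (adjusted p = 1.58e-05) and 2.84 ± 0.47 at day 48 (7.17-fold, adjusted p = 0.000234). Both control counts of day 3 were in replicate 2, and without it the fitted day 3 value was 8.97 (adjusted p = 0.00184) against controls at 0, which is no bound.

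Oas1a, the catalytic form whose counts are uncertain against Oas1g, had more signal in control epithelium. The controls had 0, 43.1 and 30.1 CPM at day 3 against 84.8, 151 and 161 CPM with T.mu (log2 fold change 2.26 ± 0.45, adjusted p = 0.00539). The 3 controls of day 14 had 31.9, 21 and 37.1 CPM against 125, 70.7 and 166 (2.01 ± 0.38, adjusted p = 0.00223), and day 48 gave 22.2, 27.6, 29.0 and 18.4 CPM against 108, 67.3, 66.1 and 46.9 (1.56 ± 0.33, 2.94-fold, adjusted p = 0.0097). Again no groups overlapped, although every day's call was lost when 1 library was left out. These were control replicate 1 at day 3 (log2 fold change 1.75, adjusted p = 0.0605) and control replicate 2 at day 14 (1.81, 0.0587), and at day 48 control replicate 1 (1.52, 0.0704) or 4 (1.49, 0.0857) or T.mu replicate 1 (1.29, 0.0871). Without control replicate 2 the day 3 value was 3.37 (adjusted p = 0.00168), and with only the 6 libraries of day 3 in the fit it was 2.19 (0.0939).

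Oas2 was the sparsest member. In day 3 epithelium its controls had no count and the T.mu libraries had 17.0, 17.8 and 16.4 CPM from 39 counts, at least 6.34-fold higher with a floor of 3 counts over the control group. The test did not call it (adjusted p = 0.121). On day 14 the controls had 7.65, 3.99 and 1.85 CPM and the T.mu libraries 14.5, 3.29 and 21.8, and on day 48 the values were 1.34, 3.68, 0 and 5.53 against 9.72, 11.1, 1.15 and 5.75. These groups overlapped, and neither log2 fold change (1.58 and 1.45, adjusted p = 0.521 and 0.996) passed.

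Oasl1, the inactive relative, had 18.1, 10.8 and 30.1 CPM in day 3 controls and 77.5, 17.8 and 43.1 with T.mu. These overlapped, and the log2 fold change of 1.37 ± 0.55 was not called (adjusted p = 0.314). On day 14 the 14.0, 3.99 and 10.2 CPM of the controls lay below the 41.4, 36.2 and 53.2 of the T.mu libraries (2.23 ± 0.49, adjusted p = 0.011). On day 48 the controls had 8.74, 1.84, 8.65 and 14.8 CPM and the T.mu libraries 35.7, 19.3, 38.0 and 23.0, without overlap (1.75 ± 0.41, adjusted p = 0.0314). Leaving out control replicate 2 of day 14 (1.86, adjusted p = 0.189) or T.mu replicate 3 (2.07, 0.0848) ended the day 14 call, and the day 48 call ended without any 1 of 5 libraries, the first 3 controls and T.mu replicates 1 and 3 (adjusted p from 0.133 to 0.328).

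Counted together, 3 of the 5 genes were called higher in day 3 epithelium, where 0.326% of all genes tested were, 4 of 5 at day 14 (0.336%) and 4 of 5 at day 48 (0.277%). The members' median log2 fold changes were 3.91, 2.23 and 1.75, against 0.06, 0.01 and 0.02 over all genes. Every T.mu library was above every control for 4 of 5 genes on each day, while 8.63%, 9.74% and 2.01% of all genes separated that way. Oas2 and Oas3, which passed the count filter only through T.mu libraries, are among the 5 genes in this paragraph's counts and medians. Since the members were also chosen with earlier results known, these values describe the family and are no independent support. Of 10 pairs sharing day and litter number, the T.mu library was higher in 9 for Oas2 and 10 for each other member. The share of all genes with such counts was not computed. As the mean of the 3 days all 5 were called (2.46% of all genes): Oasl2 at 3.40 ± 0.24 ranked 1 (adjusted p = 7.18e-17), followed by Oas3 at 3.88 ± 0.36, Oas1a at 1.94 ± 0.22, Oasl1 at 1.78 ± 0.28 and Oas2 at 3.42 (adjusted p = 0.00586), the last being a fitted value that includes the day 3 controls without a count. The 5 calls held in each alternative that gave the gene a value, with a highest adjusted p of 0.0411 for Oas2 and of 0.000143 or less for the other 4. Without control replicate 2 of day 3, Oas3 was at 5.27 (adjusted p = 1.08e-11).

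Other features moved with T.mu in the same epithelial libraries. At day 3 the control libraries were the shallower ones (median 327125 counts against 842506), and the sum of 5 red blood cell genes was 89.1 to 301 CPM with T.mu and 10.02 to 61.0 without, while at day 14 it was the lower one with T.mu (7.60 to 15.8 against 30.6 to 51.9). Epithelial markers were higher with T.mu at day 3 (9108 to 13925 CPM against 5510 to 8375) and day 14 (11807 to 15212 against 7674 to 11014). The 11 mitochondrially encoded genes, a sign of RNA make-up, were lower at day 3 (122794 to 207101 against 241817 to 364421) and day 14 (110746 to 144324 against 242630 to 288407). At day 48 both sums overlapped. Goblet markers were lower with T.mu at day 14 (29762 to 32974 against 37848 to 51183). T and NK cell markers (11 genes) were higher at day 14 (20.9 to 28.2 against 9.27 to 19.0) and day 48 (33.7 to 84.3 against 18.8 to 32.8), and B and plasma cell markers (8 genes) at day 48 (30.4 to 62.1 against 20.3 to 24.9). Smooth muscle markers were higher at day 3 (41.2 to 72.4 against 26.9 to 39.2) and lower at day 14 (26.6 to 37.0 against 38.9 to 48.4). Their part in the OAS values was not tested. Macrophage and dendritic cell markers (13 genes) summed to 18.1 to 54.7 CPM in control and 23.0 to 71.8 in T.mu epithelium. They overlapped on every day, but at day 48 barely (38.698 to 71.8 with T.mu against 31.3 to 38.732). The neutrophil markers (8 genes) summed to at most 14.4 CPM, with Elane at 0 in 19 of 20 libraries. Without the 3 libraries below 400000 counts, which left 1 control at day 3 whose spread is then taken from the other groups, 1 gene (Oasl2) stayed called at day 3, Oas1a at 1.53 (adjusted p = 0.373) and Oas3 at 3.76 (0.162) being lost, and all 5 stayed called as the mean of the days.

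**Figure D2:**
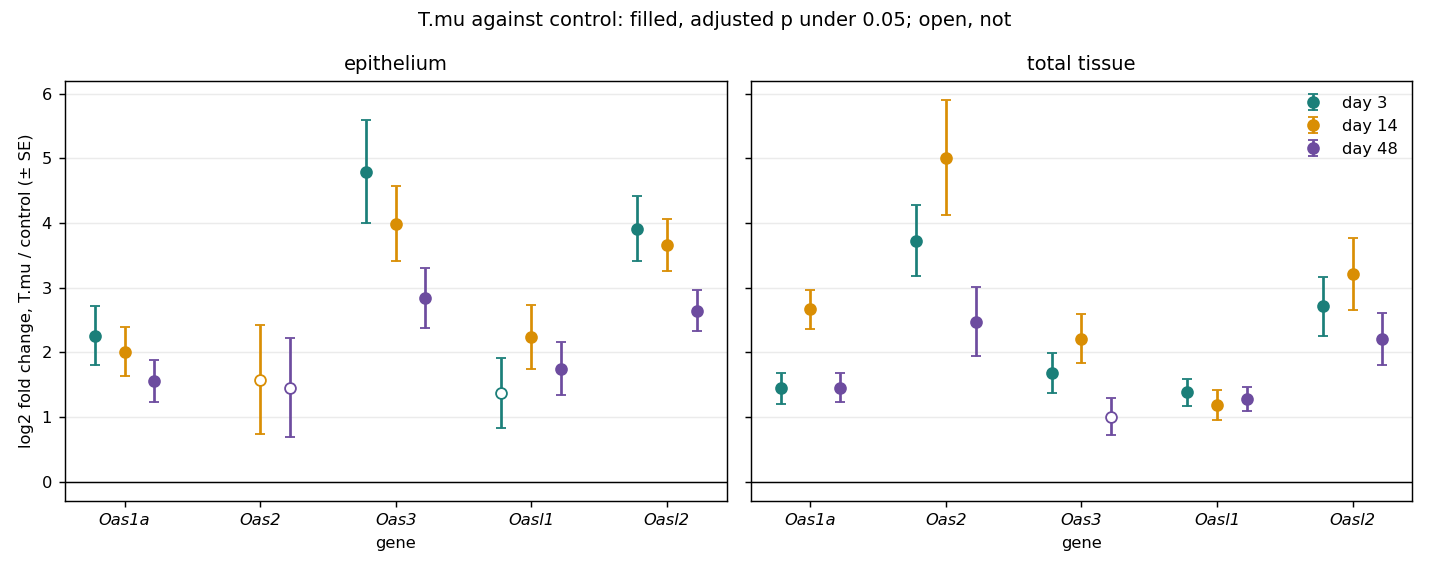
Fitted log2 fold changes of T.mu over control (± SE) for each OAS gene and day, in epithelium (left) and total tissue (right). Filled points passed an adjusted p of 0.05, and Oas2 in day 3 epithelium is left out because its controls had no count. Of the 29 points drawn, 25 are filled, and all lie above 0.

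In total tissue all 5 genes were called higher with T.mu at day 3 and day 14. Oasl2 had 48.5, 35.9 and 57.7 CPM in day 3 controls and 251, 411 and 267 with T.mu (log2 fold change 2.71 ± 0.45, 6.54-fold, adjusted p = 0.00771). At day 14 it had 11, 24 and 32.3 CPM against 258, 244 and 201 (3.21 ± 0.55, 9.25-fold, adjusted p = 0.0074), and at day 48 56.7, 42.1, 23.3 and 44.0 against 130.5, 67.9, 322 and 217 (2.20 ± 0.41, 4.61-fold, adjusted p = 0.0111). The groups did not overlap, but the 4 T.mu libraries of day 48 spread widely (184 ± 110.2 CPM, mean ± SD). The day 3 call was lost without control replicate 1 (adjusted p = 0.0723) or 2 (0.0858), and that of day 14 without control replicate 1 (0.0585). Without control replicate 3 the day 14 value was 3.86 (adjusted p = 0.0274), and the day 48 call was lost with only the 8 libraries of that day in the fit (2.22, 0.109).

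Oas1a in tissue had 42.9, 46.0 and 44.1 CPM in day 3 controls and 113, 146 and 102 with T.mu (1.44 ± 0.24, adjusted p = 6.67e-05). On day 14 it had 11, 24 and 24 CPM against 142, 143 and 105, a log2 fold change of 2.67 ± 0.30 (6.34-fold, adjusted p = 2.91e-08) that ranked 1 of 11696 genes. On day 48 it had 24.6, 34.3, 27.5 and 38.4 against 62.1, 58.7, 112 and 104 (1.45 ± 0.23, 2.74-fold, adjusted p = 4.05e-05). All T.mu libraries lay above all controls of their day.

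Oas2 was near 0 in control tissue and the member with the largest fitted fold change there. Its controls had 2.17, 1.78 and 1.34 CPM at day 3 against 17.8, 31.5 and 20.9 with T.mu (3.73 ± 0.55, 13.3-fold, adjusted p = 8.7e-06). At day 14 the controls held 2 counts in all (0, 0 and 1.04 CPM) and the T.mu libraries 180 (28.2, 24.4 and 25.2 CPM), a ratio of 34.0 (95% counting interval 9.27 to 283) and a fitted 5.01 ± 0.89 (adjusted p = 0.000316). Both control counts were in replicate 3, and the fitted value without it, 8.99 (adjusted p = 0.0176), is no bound. At day 48 the T.mu libraries had 6.21, 3.09, 26.4 and 0 CPM against 2.54, 1.67, 2.29 and 2.32, so the groups overlapped. The day 48 log2 fold change of 2.47 ± 0.53 (adjusted p = 0.00412) rested on T.mu replicate 3 and was 0.57 (adjusted p = 0.812) without it. As the mean of the days Oas2 was at 3.74 ± 0.38, and at 3.10 (adjusted p = 8.12e-05) without that library or 5.07 without control replicate 3 of day 14.

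Oas3 in tissue had 76.4, 61.6 and 43.0 CPM in day 3 controls and 207, 231 and 135 with T.mu (1.68 ± 0.31, 3.2-fold, adjusted p = 0.00369). On day 14 it had 22, 16 and 40.7 against 140.4, 149.6 and 141 (2.21 ± 0.38, 4.64-fold, adjusted p = 0.0015), or 2.91 (adjusted p = 0.00412) without control replicate 3. On day 48 the T.mu libraries split into 43.5 and 55.6 CPM, at the level of the controls (51.6, 54.6, 45.8 and 47.4), and 167 and 112 CPM above it. The day 48 log2 fold change of 1.00 ± 0.29 was not called (adjusted p = 0.0799), and it was called without T.mu replicate 1 (1.21, adjusted p = 0.00693) or 2 (1.22, 0.014), and was 0.43 (adjusted p = 0.445) without T.mu replicate 3. With all libraries it was called under RLE scaling (1.04, adjusted p = 0.0348), without a filter on low counts (0.86, 0.0246), with halved counts (1.09, 0.0339) and by DESeq2 (1.03, 0.00819), so this gene lay at the threshold.

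Oasl1 was called in tissue on all 3 days. Its tissue controls had 79.5, 85.5 and 80.1 CPM on day 3, then 96.2, 64.1 and 92.3, then 84.2, 102, 60.4 and 91.1. With T.mu it had 178, 246 and 215, then 209, 218 and 153, then 158, 167, 281 and 193 CPM. The groups did not overlap on any day, and the log2 fold changes were 1.38 ± 0.21, 1.19 ± 0.23 and 1.28 ± 0.19 (adjusted p = 2.07e-05, 0.0015 and 1.6e-05).

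In total tissue, 5 of 5 genes were called higher at day 3 (0.462% of all genes tested), 5 of 5 at day 14 (0.821%), 4 of 5 at day 48 (1.0%) and 5 of 5 as the mean of the days (1.5%). Their median log2 fold changes were 1.68, 2.67, 1.45 and 1.85, against -0.01, 0.06, -0.11 and -0.03 over all genes. Every T.mu library was above every control for 5, 5 and 3 of the 5 genes (6.92%, 8.51% and 2.66% of all genes). Oas2, which passed the count filter only through T.mu libraries, is among the 5 genes in these counts and medians. They too describe members chosen with earlier results known. Of 10 pairs sharing day and litter number, the T.mu library was higher in 9 for Oas2 and Oas3 and 10 for each other member. The share of all genes with such counts was not computed in tissue either. Depth differed between the arms: at day 14 the controls had a median of 351445 counts against 2093251 with T.mu, and at day 48 the T.mu libraries had 504696 against 3323898. Without the 4 tissue libraries below 400000 counts, which left 1 control at day 14, the day 14 call was left for Oas1a and Oas2 (2 of 5), Oasl2 was also lost at day 3 (2.68, adjusted p = 0.0735) and day 48 (2.27, 0.0913), and all 5 stayed called as the mean of the days. Macrophage and dendritic cell markers were higher with T.mu in day 3 tissue (283 to 395 CPM against 126 to 223) and overlapped on the later days (174 to 221 against 136 to 184, and 56.2 to 279.6 against 159 to 301). T and NK cell markers overlapped on all 3 days. At day 14, epithelial markers were higher with T.mu (14732 to 17599 against 11452 to 14233), and fibroblast markers (707 to 884 against 941 to 1155) and red blood cell markers (2.10 to 15.3 against 16 to 25.0) were lower, as goblet markers were at day 3 (7283 to 7766 against 8004 to 12989). Mitochondrially encoded genes were lower with T.mu at day 3 (81480 to 116037 against 121458 to 129730) and day 14 (71837 to 115074 against 121801 to 151672) and higher at day 48 (144853 to 204592 against 107140 to 142382). The part of these features in the OAS values was not tested.

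The time course gave no difference that passed. No member was called for a difference of the T.mu effect between days, in epithelium (0.0% of all genes called, edgeR, and no member at an unadjusted p below 0.05) or in total tissue (0.0684%), and DESeq2 called 0 members in both. In tissue 2 members had an unadjusted p below 0.05, Oas1a (edgeR adjusted p = 0.264) and Oas3 (edgeR adjusted p = 0.508). Among all genes, 419 of 10119 in epithelium and 1140 of 11696 in tissue had such a p. Control levels did not pass a test between days in epithelium (0.0791% of genes called) or tissue (1.15%), where Oas1a came nearest (edgeR adjusted p = 0.107). Its tissue control means were 44.3 ± 1.60 CPM (SD, n = 3) at day 3, 19.7 ± 7.51 at day 14 (n = 3) and 31.2 ± 6.30 at day 48 (n = 4). Epithelial means of Oas3 with T.mu were 56.2 ± 25.6 CPM (n = 3), 45.6 ± 9.84 (n = 3) and 27.1 ± 8.21 (n = 4) at days 3, 14 and 48, and those of Oasl2 148 ± 57.4, 123 ± 44.7 and 93.5 ± 13.2, but the differences between days did not pass the test. Ordered by mean over the 12 groups, each member's neighbouring groups mostly overlapped: 9 of 11 neighbouring pairs for Oas1a, Oas3 and Oasl1 and 10 of 11 for Oas2 and Oasl2.

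Without T.mu, epithelium and whole tissue differed for 3 members. Control epithelium had 0 to 5.38 CPM of Oas3 (median 3.18 over 10 libraries, 3 of them at 0) and control tissue 16 to 76.4 (median 46.6), a log2 fold change of -4.06 ± 0.33, or 16.7-fold lower in epithelium (adjusted p = 2.93e-18). Oasl1 had 1.84 to 30.1 CPM (median 10.5) against 60.4 to 102 (median 84.8), 7.53-fold lower (-2.91 ± 0.22, adjusted p = 1.1e-20), and Oasl2 0 to 24 (median 10.8) against 11 to 57.7 (median 39.0), 3.33-fold lower (-1.74 ± 0.33, adjusted p = 3.49e-05). Epithelial and tissue controls did not overlap for Oas3 and Oasl1, but the share of all genes that separate this way was not computed. Oas1a had 0 to 43.1 CPM (median 28.3) against 11 to 46.0 (median 30.9), a log2 fold change of -0.19 ± 0.22 (adjusted p = 0.5), and Oas2, with 24 and 60 counts in all, one of -0.71 (adjusted p = 0.627). The 3 genes called lower stand against 29.7% of all genes tested in this comparison, and 6249 of 11834 genes were called in either direction. A difference between the tissues was thus common and not particular to these 3 members. Muscle, fibroblast and plasma cell markers differed in the same direction, as the sums above and the 4 called B and plasma cell genes of 4 tested show. So did the summed epithelial markers, at 5510 to 11014 CPM in control epithelium against 11452 to 16738 in control tissue, while goblet markers went the other way. The part of cell make-up in these OAS levels was not tested.

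**Figure D3:**
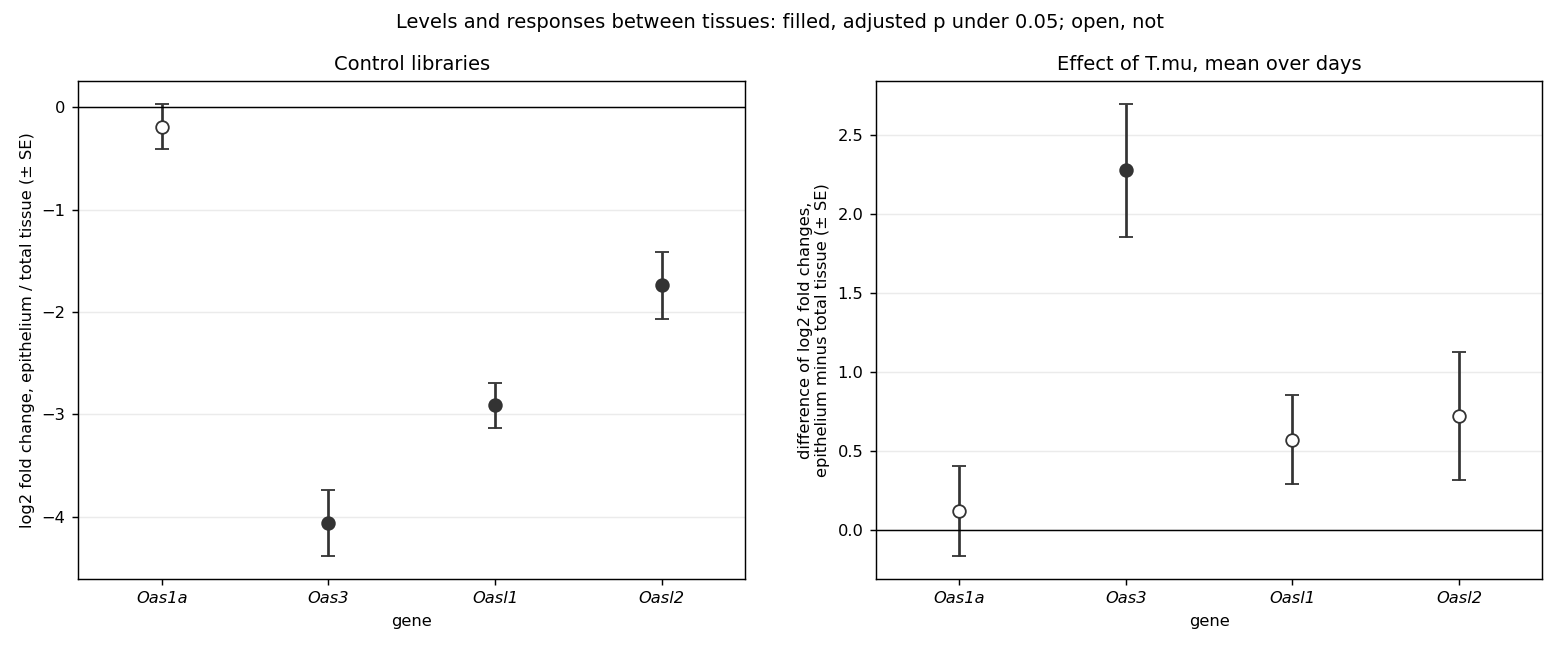
Left, log2 fold change of control epithelium over control total tissue (± SE). Right, the T.mu effect in epithelium minus that in total tissue, as the mean of 3 days (± SE), with filled points at an adjusted p below 0.05. Oas2 is left out because its counts were near 0. Oas3 is lowest on the left (-4.06) and highest on the right (2.28).

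Oas3 was the member whose response differed between the tissues. Its T.mu effect as the mean of the days was 3.88 ± 0.36 in epithelium and 1.63 ± 0.19 in tissue, and the difference tested in 1 fit over all 40 libraries was 2.28 ± 0.42 on the log2 scale (4.85-fold, adjusted p = 0.00261, rank 3 of 11834 genes). It was the 1 of 5 members called, where 0.608% of all genes were called in that direction. By day the Oas3 difference was 3.19 ± 0.94 (adjusted p = 0.227), 1.78 ± 0.70 (0.544) and 1.87 ± 0.52 (0.158), and no member was called on a single day by edgeR (0.0338%, 0.0% and 0.0254% of all genes) or by DESeq2 (0 on each day). At an unadjusted p below 0.05 were Oas3 on all 3 days and Oasl1 at day 14 (1.06), both larger in epithelium. So was Oas2 at day 14, in the other direction (-3.39, larger in tissue). Of all 11834 genes, 1262, 844 and 1102 had an unadjusted p below 0.05 on days 3, 14 and 48. The other members' differences over the days were 0.72 ± 0.41 for Oasl2 (adjusted p = 0.409), 0.57 ± 0.28 for Oasl1 (0.326), 0.12 ± 0.28 for Oas1a (0.908) and -0.03 for Oas2 (0.948). The difference in Oas3 is one of ratios, and the tissue level stayed the higher: with T.mu, epithelium had 15.3 to 71.3 CPM (median 33.8) and total tissue 43.5 to 231 (median 140.5). The epithelial controls that the ratio is taken against held 29 counts of Oas3 in 10 libraries. Over the 47 alternatives the Oas3 difference lay between 2.02 and 3.86, with adjusted p from 4.94e-06 to 0.0341, and the highest value was that without epithelial control replicate 2 of day 3 (adjusted p = 0.00135). Without the same library the control difference between the tissues was -5.58 (adjusted p = 2.65e-16).

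Outside the members, the Oas locus held 7 further genes. Oas1g, the near copy of Oas1a, was called as the mean of the days in epithelium (1.98 ± 0.38, adjusted p = 0.000624) and tissue (1.92 ± 0.23, adjusted p = 6.49e-09), so 1 of 1 tested gene rose in epithelium and 2 of 3 in tissue. There Oas1b, a gene annotated as a polymorphic pseudogene, rose by 2.54 ± 0.66 (adjusted p = 0.0201), and Oas1c, at 2.88 ± 1.07, did not pass (0.212). Oas1g in epithelium, and Oas1b and Oas1c in tissue, passed the count filter only with T.mu libraries. The calls of Oas1g and Oas1b there thus draw on the group where they were high. Tissue controls of Oas1b held 7, 2 and 12 counts on days 3, 14 and 48. Of all genes tested, 2.46% were called higher in epithelium and 1.5% in tissue. Oas1d, Oas1e, Oas1f and Oas1h had 43, 16, 10 and 13 counts over all 40 libraries and were not tested. With Oas1a and Oas1g summed into 1 gene, the sum was called on all 3 days in both tissues, with log2 fold changes of 2.34, 1.79 and 1.65 in epithelium (adjusted p = 0.000912, 0.00259 and 0.00137) and 1.41, 2.73 and 1.54 in tissue, an alternative added after the data had been seen.

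Pde12, a phosphodiesterase that degrades the adenylate chains, had log2 fold changes of 0.04 ± 0.34 in epithelium and -0.01 ± 0.19 in tissue as the mean of the days (adjusted p = 0.969 and 0.995). Abce1, an ATP-binding protein that recycles ribosomes, was at -0.20 ± 0.21 and -0.15 ± 0.16 (0.676 and 0.847). Neither was called with T.mu on any day in either tissue.

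Upstream, the interferon ligands were below the counts needed for a test. None of 8 genes was tested, and their summed level was 0 to 10 CPM in epithelium and 0 to 1.27 in tissue. Ifnb1 had no count in any library. Of the receptor and JAK-STAT genes, 2 of 9 tested rose in epithelium as the mean of the days (2.46% of all genes) and 2 of 11 in tissue (1.5%), with list medians of 0.07 and 0.07 beside 0.02 and -0.03 over all genes. They were in both tissues parts of the complex that binds the response element: Irf9 (1.40 ± 0.28, adjusted p = 0.00138, and 1.69 ± 0.16, adjusted p = 1.2e-11) and Stat2 (1.59 ± 0.32, adjusted p = 0.00155, and 1.83 ± 0.18). No receptor subunit on the list was called as the mean of the days.

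Of the interferon regulatory factors, Irf7, which drives interferon and interferon-target genes and whose translation Oasl1 restrains, was the 1 of 5 called in epithelium (1.90 ± 0.17, adjusted p = 4.46e-13) and, with Irf1 (0.42 ± 0.12, adjusted p = 0.0388), 1 of the 2 genes called among 6 in tissue (0.77 ± 0.10, adjusted p = 4.89e-08). Its T.mu effect, like that of Oas3, was larger in epithelium (difference 1.18 ± 0.20, adjusted p = 0.000271). Among the sensors of foreign nucleic acid, 2 of 9 tested rose in epithelium and 6 of 8 in tissue, with Zbp1 (1.33 ± 0.25 and 2.37 ± 0.19) and Dhx58 (2.02 ± 0.46 and 2.34 ± 0.25) called in both. Of all genes tested, 2.46% were called higher in epithelium and 1.5% in tissue. Ifih1 and Eif2ak2, sensors of double-stranded RNA as the synthetases are, rose in tissue by 0.96 ± 0.12 (adjusted p = 1.41e-08) and 0.98 ± 0.23 (adjusted p = 0.00612), while in epithelium Ifih1 was at 0.55 ± 0.19 (adjusted p = 0.0883).

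Of 34 other interferon-induced antiviral genes, 21 of 29 tested rose in epithelium (2.46% of all genes) and 28 of 31 in tissue (1.5%), and none fell. This list, like the others, was chosen with earlier results of these data known. Whether its genes passed the count filter only through T.mu libraries was not examined. Their median log2 fold changes of 1.67 and 1.77 stand beside the members' 3.40 and 1.85. The smallest adjusted p-values in epithelium were those of Lgals3bp (1.81 ± 0.15), Ifi27l2a (5.37 ± 0.47), Ifi27l2b (1.58 ± 0.16) and Rtp4 (2.81 ± 0.29), and in tissue those of Ifi27l2b (1.77 ± 0.13), Trim30a (3.60 ± 0.31), Cmpk2 (1.99 ± 0.20) and Lgals9 (1.07 ± 0.11). In the difference between tissues, 4 of 31 genes of this list were called larger in epithelium, where 0.608% of all genes were. Among them were Ifi27l2a (4.60 ± 0.64, adjusted p = 9e-05) and Ifitm3 (1.30 ± 0.26, adjusted p = 0.00423).

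**Figure D4:**
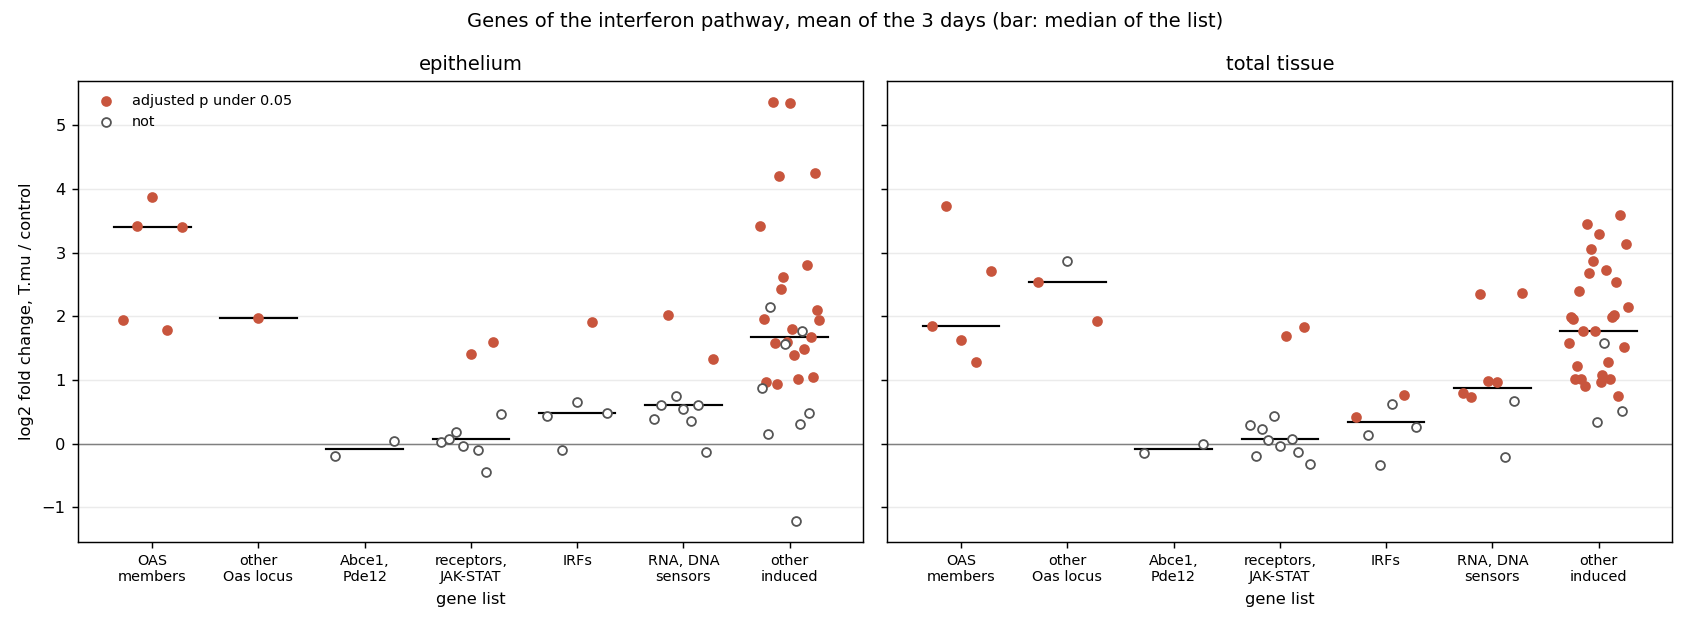
Log2 fold changes of T.mu over control as the mean of 3 days, for the OAS members and 6 lists of the interferon pathway, in epithelium (left) and total tissue (right). Points are genes, red where the adjusted p was below 0.05, and bars are list medians. In epithelium the 5 OAS members lie above 0, as do 28 of the 29 other induced genes, with medians of 3.40 and 1.67, while Abce1 and Pde12 have no red point.

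Genes with the profile most like the family's mean were found by Pearson correlation of log2 CPM over the 20 libraries of a tissue, given as a description because the libraries share the T.mu groups and their depth. In epithelium they were Ifi27l2a (r = 0.961), Ifi27l2b (0.929), Irf7 (0.926), Isg15 (0.925) and Bst2 (0.923), out of 10114 genes. In total tissue they were Usp18 (0.95), Isg15 (0.943), Lgals3bp (0.943), Ifi27l2b (0.941) and Irgm1 (0.940), out of 11691. Isg15 and Ifi27l2b were among the 5 in both tissues.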

How the data were processed

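Gene expression was measured in 40 libraries of colonic epithelium and total colonic tissue, prepared for 3′ digital gene expression per the labels' protocols. The authors deposited whole-number counts per Ensembl gene, not normalized. Per the submitters' processing notes the tools included STAR and Subread; versions and roles are not given. The genome build, strand and any molecular identifiers are not given in the sources used here. In each library 61.2% to 87.2% of the counts from 1 to 20 are even, so low counts hold less information than their size, and counting intervals and floors (95% exact, 3 counts over a group) cover counting error only. The non-mouse entry, 0.389% of all counts, entered neither library sizes nor tests. Symbols came from GENCODE M21, in which 45143 of the 45792 genes have one.

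Counts were tested with edgeR 4.0.16 (quasi-likelihood, R 4.3.3), with TMM scaling and filterByExpr (minimum count 10, minimum total 15), in 1 fit per tissue over its 20 libraries and 6 groups, and in 1 fit over all 40 libraries for contrasts between tissues. P-values were adjusted over all tested genes by the method of Benjamini and Hochberg, and a gene was called below 0.05. CPM are TMM-scaled mouse counts. The scripts were tested on simulated data. T.mu and control libraries of the same tissue, day and number were taken as pairs of 1 litter. Their deviations from the group means correlated at a median of 0.02 in epithelium (2 of 10 pairs above 0.1) and 0.01 in tissue (1 of 10). A fit with the litter number as a block is an alternative, in which each number is 1 block over all days. For contrasts between tissues the block joined epithelial and tissue libraries of the same inoculum, day and litter number, which the labels do not state to be 1 animal (median correlation 0.00435, 0 of 20 pairs above 0.1). The others are RLE scaling, no filter, DESeq2 1.42.0, halved counts, only the libraries of a comparison, leaving out libraries below 400000 counts or 1 library at a time, and, added later, Oas1a and Oas1g summed. Nothing in the labels beyond litters says that libraries are separate animals, so p-values measure the spread between these libraries.

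The members and gene lists were chosen with earlier results of these data known, and some genes of these lists are not reported here. Named genes are the 5 members, up to 4 genes per interferon list by smallest adjusted p, Abce1, Pde12 and the genes of the Oas locus, and the 5 genes per tissue whose log2 CPM (prior count 2) correlated best with the members' mean.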

Additional observations from a re-analysis of the deposited data

Results flagged for a closer look

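The T.mu effect on Oas3 differed between epithelium and total tissue when the 3 days were averaged, by 2.28 ± 0.42 on the log2 scale (edgeR adjusted p = 0.00261), with 3 of 3 days in the same direction. For the 5 members in the 4 groups of 4 libraries (20 sets of values), no library was found whose gap to the others passed Dixon's limit (0.829 for 4), and groups of 3 were not examined this way.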

How the results depend on the processing

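Members called were recounted under each alternative. Without the libraries below 400000 counts the count fell from 3 to 1 in day 3 epithelium and from 5 to 2 in day 14 tissue, in both cases with 1 control library left. Fitting only the libraries of the comparison left 2 of 4 in day 48 tissue. Without a filter on low counts, Oas3 became the 1 member whose T.mu effect differed between tissues at day 48. With 1 library left out, the count was 2 to 4 in day 14 epithelium and 2 to 4 in day 48 epithelium, and 0 to 1 for the day 48 difference between tissues. The causes were not tested. The replicate block by litter number took each number as 1 block over all days, not as pairs within a day. It kept every count (3, 4 and 4 in epithelium, 5, 5 and 4 in tissue, 5 and 5 for the means) and changed no member's call. For T.mu against control, 286 of 299 member values under the other settings and 382 of 400 with 1 library left out kept direction and call, and none reversed. The values that reversed were uncalled differences between tissues. For control epithelium against control tissue, Oas1a was at 0.0614 under RLE scaling, 0.0601 under DESeq2 and -0.502 to 0.0776 with 1 library left out, and Oas2 at 0.57 under DESeq2 and -0.94 to 0.45. For the T.mu effect as the mean of days, Oas2 was at 0.0092 without a filter, 0.22 with libraries of the same inoculum, day and litter number as the replicate block, 0.067 without the shallow libraries and -1.20 to 0.59 with 1 library left out, and Oas1a at -0.0382 without the shallow libraries and -0.0816 to 0.499. At day 3 Oasl1 was at -0.0967 under RLE scaling, -0.102 under DESeq2 and -0.38 to 0.47, at day 14 Oasl2 at -0.19 to 0.73, and at day 48 Oas1a at -0.18 to 0.37 and Oas2 at -1.38 to 0.94. Depth limits Oas2 and the epithelial controls of Oas3, where single counts decide a fold.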

Other observations

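The non-mouse entry of the table varied between T.mu libraries, from 45.2 to 2073 CPM in epithelium and from 1425 to 42755 in tissue. Across the 10 T.mu libraries of epithelium, its log2 level and the members' mean log2 CPM had a Pearson r of 0.549 (permutation p = 0.104) and a Spearman rho of 0.564 (permutation p = 0.097), and r was 0.254 without the 2 libraries farthest from the median. In total tissue r was 0.537 (permutation p = 0.121) and rho 0.345 (permutation p = 0.327), and r was 0.223 without the 2 farthest. The 2 relations had Benjamini-Hochberg adjusted p-values of 0.121 and 0.121 for r. The libraries come from 3 days, with 3 to 4 of each, too few for a value within a day.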
